A study of Apis mellifera with 2 samples.

Results

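Syt1 and Syt20 are the 2 genes of the honey bee (Apis mellifera) that carry a synaptotagmin symbol in the RefSeq gene table of assembly Amel_HAv3.1, out of 9935 protein-coding genes. They were selected on their estimated counts in these libraries, both being higher in the adult one, so their difference between the libraries is a description and was not tested. Together they have 13 coding sequences of the 23471 that were quantified, 5 for Syt1 and 8 for Syt20, found by the protein identifier of each. The RNA came from hemocytes, which are insect blood cells, of the subspecies carnica. The adult library came from bees under a day old that emerged from closed brood at 34 °C and were gathered every 24 h, and the larval library from worker larvae 8 days old in instar 5. The labels name no treatment or genotype, and each stage is 1 library made from 320 µL of hemolymph. The sources used here do not give the number of insects behind it. Since a stage has a single library, its spread is unknown, no p-value is given, and differences are those between the libraries.

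Synaptotagmins are membrane proteins with an N-terminal transmembrane segment and a pair of C2 domains that face the cytosol. In many members of the family the C2 domains bind calcium and acidic membrane lipids, and they act on SNARE proteins, the coiled-coil proteins that pull a vesicle and its target membrane together. Synaptotagmin 1 is known, from flies and mice, as the calcium sensor for fast release of neurotransmitter at synapses. Other members of the family serve vesicle traffic and secretion outside neurons in mammals, including lysosome fusion and plasma membrane repair. Hemocytes secrete and engulf, and both tasks need membrane fusion. The sources used here do not say which fusion steps Syt1 and Syt20 serve in bee hemocytes.

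The libraries held 16880784 (adult) and 17657463 (larva) estimated counts. Levels are given as counts per 1000000 after TMM scaling of the library sizes (scaled CPM) for comparison between the libraries, and the authors' TPM, which are relative to length, for comparison between genes. Intervals are exact 95% intervals and cover counting error only. A gene met the size rule when its interval lay at or beyond 4-fold and it reached 10 CPM in the higher library. Of 8798 genes with at least 10 counts, 3.14% met the rule as higher in the adult and 2.72% as higher in the larval library, which is 276 against 239 genes, and 413 against 160 with plain totals in place of TMM.

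Syt1, the calcium sensor of fast release, had 20842 adult and 3820 larval estimated counts. These correspond to 1094 scaled CPM (interval 1079 to 1109) in the adult and 244 scaled CPM (236 to 252) in the larva. The adult level was 4.48-fold that of the larva (4.33 to 4.64), a log2 fold of 2.16. Syt1 met the size rule with the near end of its interval just past 4-fold. It took 0.123% of all adult counts (0.122 to 0.125) and 0.0216% of all larval counts (0.0210 to 0.0223).

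Syt20, of the same family, had 9280 adult and 958 larval estimated counts. Its level was 487 scaled CPM (477 to 497) in the adult and 61.2 scaled CPM (57.4 to 65.2) in the larva. The adult level was 7.95-fold that of the larva (7.44 to 8.51), a log2 fold of 2.99. Both genes met the size rule on the adult side, which reflects how they were chosen. In bulk RNA, fewer cells of a type and less RNA per cell cannot be told apart.

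**Figure D1:**
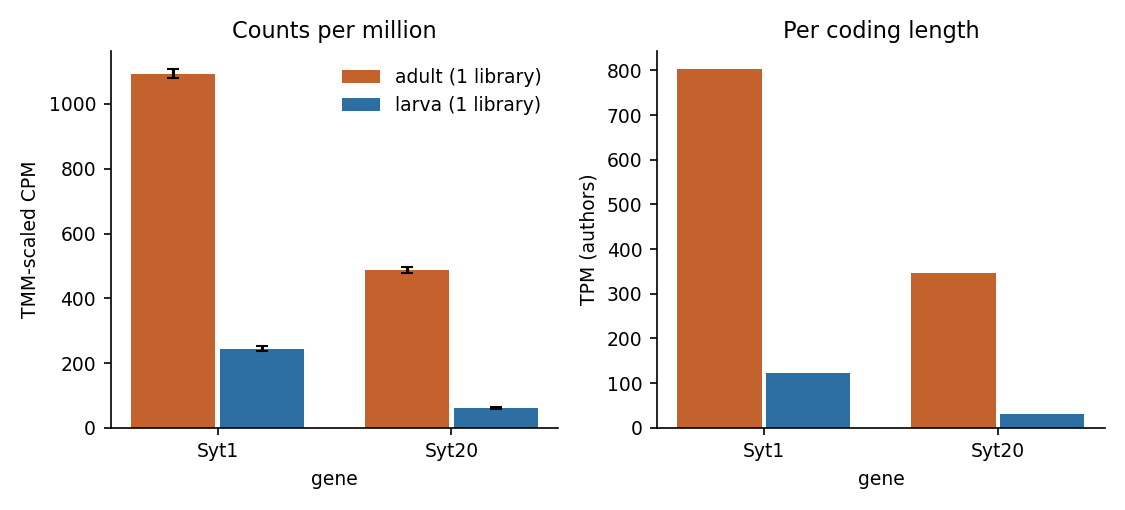
Level of Syt1 and Syt20 in the adult (orange) and larval (blue) library, as TMM-scaled CPM with exact 95% Poisson intervals (left) and as the authors' TPM, relative to coding length (right); each bar is 1 library. Adult bars are higher than larval bars for both genes, and Syt1 is higher than Syt20 in both libraries.

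Per coding length, Syt1 was the more abundant gene in both libraries. Its TPM was 804 (adult) and 123 (larva), and that of Syt20 was 347 and 29.9. Ordered by TPM among 9935 genes, Syt1 stood at rank 217 in the adult and at rank 1126 in the larva. Syt20 stood at rank 474 in the adult and at rank 3336 in the larva. Of all genes, 66.4% had a lower TPM than Syt20 in the larva, against 95.2% in the adult, while for Syt1 these shares were 88.7% and 97.8%.

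The balance between the genes also differed between the libraries, and this ratio does not depend on how the libraries are scaled. Syt1 exceeded Syt20 by 2.32 times in TPM in the adult and by 4.12 times in the larva. Expressed the other way, Syt20 reached 0.432 of the Syt1 TPM in the adult and 0.243 in the larva, a ratio of 1.78 between the libraries. From estimated counts the ratio was also 1.78, with an interval of 1.65 to 1.92. Syt20 was the gene with the wider difference between these libraries, beyond counting error.

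All 13 coding sequences were given counts in both libraries, and they fell into 2 lengths per gene. Within each length the deposited estimates were equal in each library, as kallisto gives when reads cannot separate sequences, so a length stands for 1 measured form. For Syt1 the forms were 1305 bases (4 coding sequences, 434 amino acids) and 1299 bases (1 coding sequence, 432 amino acids), which differ by 2 codons. For Syt20 they were 1335 bases (3 coding sequences, 444 amino acids) and 1350 bases (5 coding sequences, 449 amino acids), which differ by 5 codons. Protein lengths are the coding length in codons less the stop codon.

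The 1305-base form dominated Syt1 in both libraries. It held 95.1% of the counts of the gene in the adult (94.8 to 95.4) and 95.6% in the larva (94.9 to 96.2), and each of its 4 coding sequences was given 23.8% and 23.9%, a difference of -0.125 points (-2.09 to 1.80). The 1299-base form held 4.91% (4.62 to 5.21) and 4.41% (3.77 to 5.10), and its odds against the longer form could not be told apart between the libraries, since the odds ratio of the 1305-base form, adult over larva, was 0.891 with an interval of 0.750 to 1.05. As levels, the 1299-base form stood at 53.7 scaled CPM in the adult and 10.7 in the larva, 4.99-fold higher in the adult library (4.24 to 5.92). The 1305-base form stood at 1040.2 and 233 scaled CPM, 4.46-fold higher (4.30 to 4.62).

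In Syt20 the shorter form, of 1335 bases, led in both libraries. It held 84.7% of the counts of the gene in the adult (84.0 to 85.5) and 81.5% in the larva (78.9 to 83.9), a difference of 3.22 percentage points. Grouping by length was chosen after the data were seen. Each of the 3 coding sequences of the 1335-base form was given 28.2% in the adult and 27.2% in the larva. That is a difference of 1.07 points (-2.75 to 4.83, the outer bounds of both intervals). Equal division of 1 form and the use of outer bounds widen that interval, so it cannot decide whether the share differed. Each of the 5 coding sequences of the 1350-base form was given 3.05% and 3.70%. The odds of the 1335-base form were 1.26 times as high in the adult as in the larval library (1.05 to 1.499). This interval is too narrow, because only reads that reach the stretch where the forms differ separate them, while it takes all reads of the gene as informative.

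Both Syt20 forms were higher in the adult library. The 1335-base form had 7864 adult and 781 larval estimated counts, or 413 and 49.9 scaled CPM, 8.26-fold higher (7.68 to 8.91). The 1350-base form had 1416 and 177 estimated counts, or 74.3 and 11.3 scaled CPM, 6.55-fold higher (5.62 to 7.72). Counted singly, 13 of 13 coding sequences met the size rule on the adult side, against 3.95% of 16625 coding sequences compared, and the genes had been chosen for this direction. Those of one length carry the same value and are no separate evidence.

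**Figure D2:**
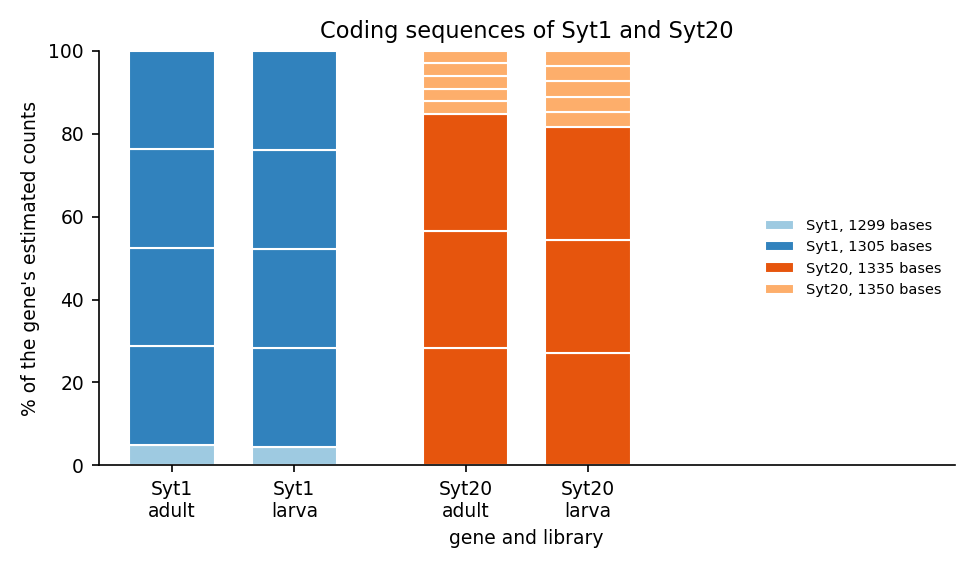
Share of the estimated counts of each gene (percent, vertical axis) given to each of its coding sequences in the adult and larval library; white lines part the coding sequences and colours mark their length. The 1305-base form of Syt1 and the 1335-base form of Syt20 lead in both libraries, and the 1350-base form of Syt20 takes 15.3% of adult and 18.5% of larval counts.

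These shifts lay below the median shift of other genes. Over 2687 genes with at least 2 forms of distinct estimates and 100 counts in each library, the leading form moved by a median of 5.72 percentage points between the libraries, with quartiles of 1.63 and 14.3. Syt1 moved by 0.502 points, more than 15.0% of these genes, and Syt20 by 3.22 points, more than 36.9%. The other genes were not matched to the members in counts, and counting error alone gives wider shifts at low counts. The difference in level between the libraries was shared by all forms of both genes, while the shares of the forms moved little.

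Among genes of like level the members lay toward the adult end, a place that follows from their choice as higher in the adult. Of 348 genes with a mean scaled CPM within 2-fold of that of Syt1, 18 had a larger log2 fold, and the median was -0.77 with quartiles of -1.38 and 0.25. Of 1108 genes within 2-fold of Syt20, 16 had a larger log2 fold, and the median was -0.33 with quartiles of -1.03 and 0.42. In these windows 5.17% and 3.34% of genes met the size rule as higher in the adult library. Over all 8798 genes compared, Syt20 stood at place 329 and Syt1 at place 591 from the adult end of the log2 folds, and among the 315 with a symbol at places 29 and 35.

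**Figure D3:**
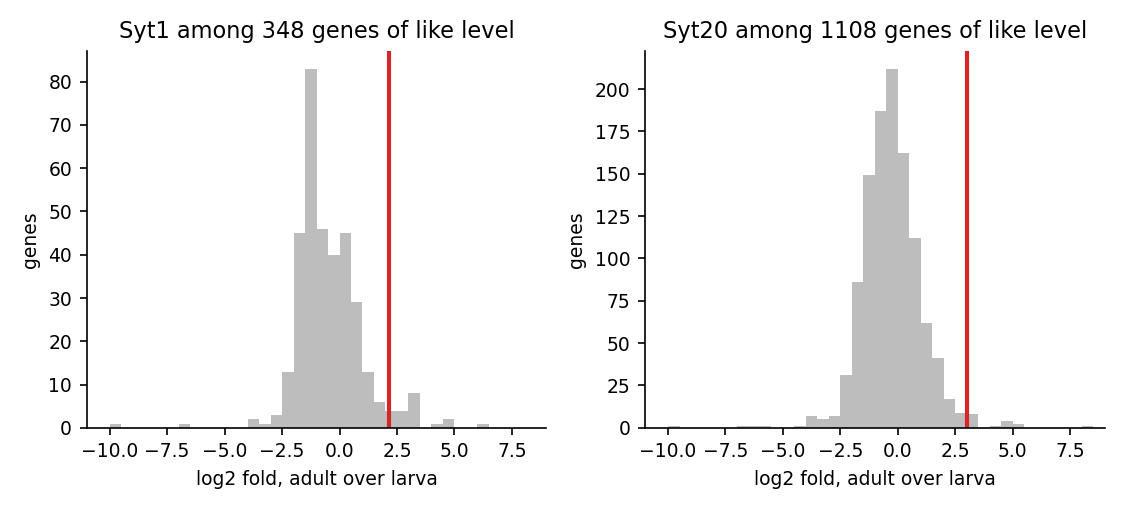
Histograms of the log2 fold, adult over larva (horizontal axis), of genes whose mean scaled CPM lies within 2-fold of Syt1 (left, 348 genes) and Syt20 (right, 1108 genes); the vertical axis counts genes and the red line marks the member. The members, chosen as higher in the adult, lie in the upper tail, at 2.16 and 2.99, with 18 and 16 genes beyond them.

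The genes with a symbol and a like level whose fold came nearest were listed for each member, over these 2 libraries. For Syt20 they were CYP6AQ1, a cytochrome P450, at 618 against 73.6 scaled CPM and 0.08 log2 units away, Pkc (protein kinase C) at 0.29 and Tpx-4, a thioredoxin peroxidase, at 1.19. For Syt1 the nearest of 24 candidates was Calpb, a calpain protease, at 1975 against 648 scaled CPM and 0.56 log2 units away, followed by CYP6AQ1 at 0.91 and For, the cGMP-dependent protein kinase foraging, at 1.09. With 1 value per stage the likeness rests on a single fold each.

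Few other genes of vesicle fusion carry a symbol, and the list fixed for them held 2 besides the members. Syx1A encodes syntaxin 1A, the SNARE of the plasma membrane on which synaptotagmin 1 acts in flies and mice. It stood at 88.4 scaled CPM in the adult and 57.0 in the larva, 1.55-fold higher in the adult library (1.43 to 1.68). Vamp7, a SNARE of late endosomes and lysosomes, stood at 74.3 and 86.5 scaled CPM, a log2 fold of -0.22 (fold of 0.859, 0.797 to 0.926), which was above 0 under plain totals, under totals without mitochondrial genes and under TPM. Those scalings also raise the median of all genes, and relative to the median of all genes Vamp7 lay at -0.24 with TMM and at -0.26 with TPM. Neither met the size rule, and the median of the pair was 0.21, against 0.02 over all genes. The interval of the fold lay above 1 for 41.8% and below 1 for 40.9% of all genes, so an interval on one side of 1 is common.

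Set against these SNAREs per coding length, both synaptotagmin mRNAs stood higher in the adult library. The members were chosen as higher in the adult, so this direction partly restates that choice. The TPM of Syt1 was 6.86 times that of Syx1A in the adult and 2.35 times in the larva, and 5.67 and 1.06 times that of Vamp7. The TPM of Syt20 was 2.96 times that of Syx1A in the adult and 0.572 of it in the larva. Against Vamp7 it was 2.45 times as high in the adult and 0.257 of it in the larva. Syt20 thus stood above both SNARE genes in the adult and below both in the larval library.

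The list of calcium and phosphoinositide signalling, the input that calcium-bound synaptotagmins read, had 4 measured genes. Of these, 2 met the size rule on the adult side and none on the other, and their median log2 fold was 1.85, against 0.02 over all genes. Of the 315 compared genes with a symbol, 6.67% met the rule as higher in the adult and 6.67% as higher in the larva. They were Ip3k, a kinase of inositol trisphosphate, at 1358 against 126 scaled CPM (10.8-fold), and Pkc, which is activated by diacylglycerol and calcium, at 620 against 64.0 (9.69-fold). Both were known from earlier results of these data. The calcium channel gene Cac, the synaptic calcium entry route in flies, had 77 adult and 47 larval counts (log2 fold 0.42, fold interval 0.924 to 1.98). Camkii, the calcium and calmodulin dependent kinase, had 179 and 198 counts (log2 fold -0.43, above 0 under TPM). Relative to the median of all genes Camkii lay at -0.45 with TMM and at -0.38 with TPM. The TPM of Syt20 was 1.13 times that of Pkc in the adult and 1.47 times in the larva, and that of Syt1 was 0.963 of the TPM of Ip3k in the adult and 2.13 times it in the larva.

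**Figure D4:**
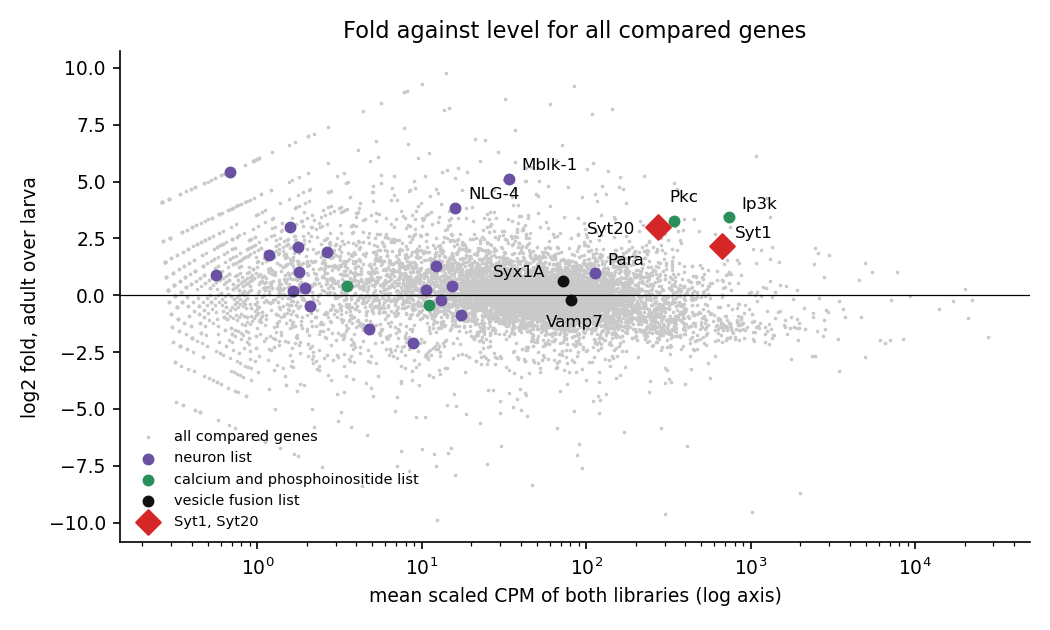
Log2 fold, adult over larva (vertical axis), against the mean scaled CPM of both libraries (horizontal log axis) for 8798 genes, with Syt1 and Syt20 as red diamonds and list genes as coloured points. Syt20 lies beside Pkc, Syt1 below Ip3k, and Syx1A and Vamp7 lie near 0; the fold of a gene with 0 counts in one library depends on the prior of 0.5 counts.

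Because Syt1 is best known from neurons, its level was set beside a list of 27 neuronal genes. Of these, 20 were compared, 2 met the size rule on the adult side and none on the other, and the median log2 fold was 0.92, the same with genes at 0 counts placed at the limit of 3 counts. Many of the 20, brp, nAChRb2 and NLG-5 among them, stood below 10 CPM in both libraries and could not meet the rule at any fold. The share past the rule on the adult side, under the same floor, was 3.14% over all genes and 6.67% over those with a symbol. The intervals of 11 lay above 1 and those of 3 below 1, against 41.8% and 40.9% of all genes. The whole list summed to 344 scaled CPM in the adult and 177 in the larva, less than Syt1 alone in each. Per coding length Syt1 was 7.83 times the summed TPM of the 27 genes in the adult and 2.53 times in the larva, and Syt20 was 3.38 times it in the adult and 0.614 of it in the larva.

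By counts, which are not corrected for length, the leading neuronal gene was Para, the voltage-gated sodium channel, at 149 against 76.0 scaled CPM (1.96-fold higher in the adult, 1.83 to 2.10). By TPM, Para also led in the adult at 20.1, while in the larva the dopamine receptor gene Dop1 led at 14.5, and Para stood at 6.80. Past the size rule were Mblk-1, a transcription factor of mushroom body neurons, at 66.3 against 1.85 scaled CPM, and NLG-4, a neuroligin of synaptic adhesion, at 30.0 against 2.05. The presynaptic scaffold gene brp (bruchpilot), which marks release sites, had 26 counts in the adult and 0 in the larva, at least 7.12-fold higher in the adult at the limit of 3 counts in that library, a bound that takes the adult count as exact, while the exact interval of the fold starts at 5.39. Nrx-1, the presynaptic partner of neuroligins, had 63 adult and 226 larval counts, a log2 fold of -2.12. The nicotinic acetylcholine receptor genes nAChRa7 and nAChRb1 and the amine receptor genes TyrR and 5-ht7 were at 0 in both libraries, and brp, nAChRa4, Dop3 and DopR2 were at 0 in the larval library. The neuronal list was higher in the adult library as a sum. In scaled CPM most of that difference lay in Para, Mblk-1 and NLG-4, so the size of the difference rests on few genes. The median log2 fold of the list, 0.92 against 0.02 over all genes, lay on the same side as the sum. The genes whose intervals lay below 1 were Nrx-1, nAChRa1 and Dop1. The part of the neuronal list in the Syt1 and Syt20 difference was not tested.

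**Figure D5:**
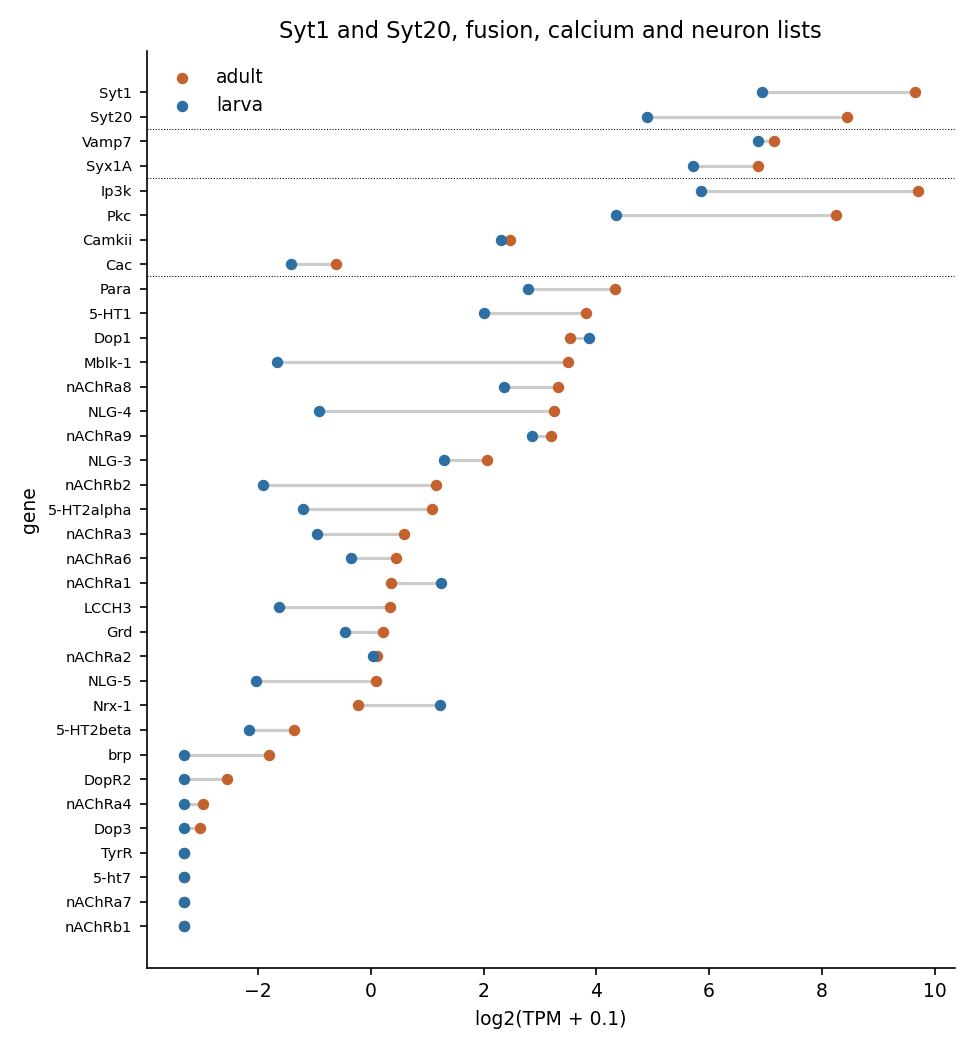
Level as log2(TPM + 0.1) (horizontal axis) in the adult (orange) and larval (blue) library for Syt1 and Syt20, then for the vesicle fusion, calcium and phosphoinositide, and neuron lists, parted by dotted lines. Syt1 and Syt20 lie above every neuronal gene in both libraries, and 4 neuronal genes have a TPM of 0 in both, drawn at the low end of the axis.

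The labelled cell type was checked on 3 hemocyte genes that carry a symbol. PPO, the prophenoloxidase of melanization, stood at 14041 scaled CPM in the adult and 28019 in the larva, Tspan6, a tetraspanin, at 312 and 417, and Dscam, an immunoglobulin receptor, at 23.0 and 29.2. In TPM, PPO remained higher in the larva (5902 against 8011), while Tspan6 (548 against 515) and Dscam (3.06 against 2.64) were higher in the adult, and relative to the median of all genes both stayed below 0. The Syt1 TPM was 0.125 of the summed TPM of these genes in the adult and 0.0144 of it in the larva, and PPO made up most of that sum. Among lists of other tissues, the sums went both ways. Fat body genes summed to 190 scaled CPM in the adult and 6888 in the larva, with 5 of 7 meeting the size rule on the larval side and 1 (Vg) on the adult side. Muscle genes (7 measured, none past the rule) summed to 29.3 and 43.1 scaled CPM, but to 90.3 and 84.7 TPM. Apart from TpnT and TpnCI, the muscle genes stood below 10 CPM in both libraries and could not meet the rule. Neuroendocrine genes (5 of 6 measured) summed to 86.0 and 43.9 scaled CPM, and Eth, the ecdysis triggering hormone, was the member past the rule. At 64.2 against 0.128 scaled CPM, Eth made up most of the adult sum. The median log2 fold of the neuroendocrine list was -0.23, against 0.02 over all genes. The part of these tissues in the synaptotagmin levels was not tested.

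By the RefSeq annotation, 2 non-coding genes overlap Syt1 and none overlaps Syt20. The coding neighbours of Syt1, LOC410751 and LOC102655057, had 19 and 6 adult counts, against 3 and 13 in the larva. Those of Syt20, LOC100576709 and LOC726864, had 1009 and 3, against 627 and 0 in the larva. None of the 4 met the size rule. LOC410751, LOC102655057 and LOC726864 stood below its CPM floor in both libraries and could not meet it at any fold. The rule therefore cannot decide whether they share the difference of the members. On these few counts the fold was 4.57 (1.53 to 27.4) for LOC410751 and 0.395 (0.118 to 1.07) for LOC102655057. LOC100576709 was above the floor, with a fold of 1.32 (1.19 to 1.46).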

How the data were processed

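Oligo(dT)-selected RNA of 1 adult and 1 larval hemocyte library was sequenced as read pairs of 150 bases per end on a DNBSEQ instrument, per the labels' protocols. The authors deposited, for each coding sequence, an estimated count and a TPM from kallisto, per the submitters' processing notes and the file headers. Its version, index and build are not stated in those sources, nor is whether counting used strand, although the protocol marks it with dUTP, so reads of genes that overlap cannot be separated. kallisto divides reads among coding sequences, and targets hold no untranslated regions.

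All 23471 coding sequences matched a gene by protein identifier. Counts were summed per gene and rounded, TMM factors (edgeR 4.0.16, R 4.3.3) were 1.13 (adult) and 0.886 (larva), and genes with 10 or more counts in the libraries together were compared. Folds use a prior of 0.5 counts. Intervals are exact at 95% (Poisson for CPM, Clopper-Pearson for shares and for folds, conditional for odds ratios), cover counting error only and may be too narrow, since PCR copies are not independent. A count of 0 allows up to 3 counts, or 0.157 scaled CPM in the adult and 0.192 in the larva. The intervals and size rule were tested on simulated data. Python 3.11.15, scipy 1.17.1, pandas 2.3.3 and matplotlib 3.10.9 did the rest.

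The members, lists and rules were chosen with earlier results of these data known. Named genes were the members, genes of the lists by symbol, and the 3 genes with a symbol, within 2-fold of the mean CPM, nearest in log2 fold to each member. The prefixes also matched 5 chemosensory protein genes (CSP) and cact1 (cactus), left out by function. The coding neighbours were added after the data were seen. Alternatives covered scaling, TPM, priors, count filters, fold thresholds and single coding sequences.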

Additional observations from a re-analysis of the deposited data

How the results depend on the processing

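The log2 folds of Syt1 and Syt20 stayed above 0 under the 7 alternatives tried. They moved past their counting intervals with plain totals (2.51 and 3.34), with totals without the mitochondrial genes (2.46 and 3.29) and with the authors' TPM (2.71 and 3.54). The median of all genes moved with them, from 0.02 to 0.37, 0.32 and 0.55. Relative to it Syt1 lay at 2.14 and Syt20 at 2.97 with TMM and with each other scaling of the totals. That equality holds by construction, since a change of totals moves all genes alike. With TPM, where the values could differ, they lay at 2.16 and 2.99. The genes past the size rule numbered 276 (adult) and 239 (larva). They became 560 and 142 with TPM, which has no interval. By construction they became 879 and 931 with a 2-fold rule and 120 and 86 with an 8-fold rule. With plain totals they were 413 and 160, which moves the adult share of these calls. Shares of single coding sequences and the ratio of Syt20 to Syt1 stayed within their counting intervals. Taking all coding sequences of a length together, an alternative chosen after seeing the data, gave -0.502 points for Syt1 and 3.22 for Syt20. That is the share of a whole form, so the interval of a single coding sequence does not apply to it. No paired analysis was possible because each stage has 1 library, and no library could be left out. Depth limits the neuronal genes, of which several have under 100 counts in each library, more than the members.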
